A study of Homo sapiens with 4 samples.

Results

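The ERK pathway was followed here through 10 genes that scaffold it, feed into it or restrain it in return: KSR1, PTK2B, DUSP4, DUSP6, SPRY2, SPRY4, SPRED1, SPRED2, ETV5 and PHLDA1. They were taken by symbol from 61498 annotated genes, and each symbol matched 1 gene ID. The members were chosen by the levels and differences they show in this same comparison of untreated and hemin-treated cells, so their values between the conditions are given as a description, and neither the fold changes, the intervals nor the threshold calls of members serve as a test. Of the 10 members, 8 had enough counts for the fit across all genes, and DUSP4 and DUSP6 did not.

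The cells were K562, a human erythroleukaemia line with the BCR-ABL1 fusion. Hemin, the ferric form of haem, pushes these cells some way into erythroid differentiation. Untreated cells were compared with cells kept for 108 h in 50 µM hemin, and both conditions shared the same line and the same serum-containing medium. Poly(A) RNA was sequenced in 2 libraries per condition. The labels do not say whether the 2 replicates were separate cultures, so the spread between libraries, given as SD, may be technical. Standard errors of fold changes come from the fit across all genes, which also draws on the spread of other genes.

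In the ERK pathway, an activated receptor or tyrosine kinase loads Ras with GTP, Ras recruits RAF kinases, RAF phosphorylates MEK, and MEK phosphorylates the ERK kinases. Scaffolds such as KSR1 hold these kinases together. ERK in turn switches on transcription factors and also its own brakes, among them dual-specificity phosphatases that remove phosphate from ERK and the Sprouty and SPRED proteins that act on Ras and RAF. In K562 cells the pathway lies downstream of the BCR-ABL1 tyrosine kinase. RNA levels give no direct reading of how strongly these kinases were active.

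The expected counts of the 4 libraries summed to between 7455447 and 8241534, and a count of 0 allowed up to 3 counts, or 0.364 to 0.402 CPM, the count scaled to library size. All 13 K562 defining markers passed the filter on low counts, and their summed level was 5703 to 5922 TPM, a level scaled for both length and depth, in untreated cells and 6814 to 7275 TPM after hemin. By the quasi-likelihood test of edgeR, with p-values adjusted over all genes by Benjamini-Hochberg, 4 of these markers rose, namely HBE1, HBZ, LMO2 and TFRC, which were named after their values were seen. Markers of other blood lineages were low. The 8 lymphocyte markers summed to at most 3.82 TPM in any library and CD3E, CD2, MS4A1 and CD8A had no count, and the 9 monocyte and granulocyte markers summed to at most 3.10 TPM, with MPO, ELANE and S100A9 at 0. The 7 fibroblast and endothelial markers summed to between 4.76 and 7.38 TPM, with VWF and CDH5 at 0. The 8 megakaryocyte markers summed to 36.6 to 46.7 TPM in untreated cells and 56.4 to 59.9 TPM after hemin, most of it GP1BB, which rose (log2 fold change 0.64, adjusted p = 0.00783 by edgeR), while GP9, PF4 and PPBP had no count. Other megakaryocyte markers did not rise with it. ITGA2B had 15 and 27 counts in untreated cells and 10 and 9 after hemin (log2 fold change -1.15 ± 0.45 SE). ITGB3, below the filter, had 9 and 10 counts before and 1 and 3.11 after, and GP1BA differed by -0.16 ± 0.37. Apart from GP1BB, no gene of these 4 lists passed the adjusted threshold in edgeR, DESeq2 or limma. At an unadjusted p under 0.05 edgeR gave 2 further genes, ITGA2B and COL1A2, both lower. Whether GP1BB and the members moved in the same cells was not tested, and in bulk RNA fewer cells of a type cannot be told apart from less RNA per cell.

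The levels of the members covered a wide range, and KSR1 stood far above the rest. In untreated cells KSR1 was at 256 ± 7.43 TPM (SD, n = 2), which placed it at rank 402 among all genes, followed by PTK2B at 40.7 ± 0.0707 and SPRED2 at 30.2 ± 0.643 TPM. ETV5, SPRY4, SPRED1 and SPRY2 lay between 16.9 and 5.83 TPM, PHLDA1 was at 2.30 TPM, and DUSP6 and DUSP4 were below 1 TPM at 0.570 and 0.155. In this order SPRED1 and SPRY2 overlapped between libraries and the other neighbours did not. After hemin KSR1 was still first at 161 ± 10.9 TPM, but SPRED2 at 31.5 ± 3.32 TPM now stood above PTK2B at 20.8 ± 1.61 TPM, whose libraries overlapped those of ETV5 at 18.1 ± 2.93 TPM. SPRY2, at 8.24 ± 0.233 TPM after hemin, stood above SPRED1 at 6.50 ± 0.990 TPM, with no overlap.

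**Figure D1:**
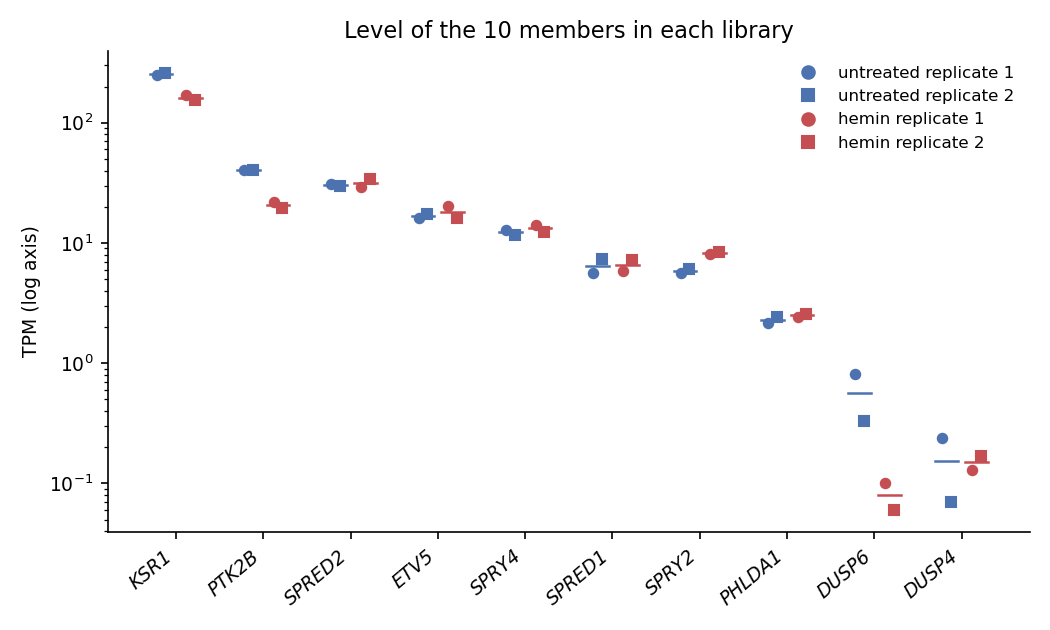
TPM of each of the 10 members (log axis) in the 2 untreated and 2 hemin-treated libraries, 1 point per library, with a bar at each mean. KSR1 lies highest in both conditions, at 256 TPM untreated and 161 TPM after hemin, and DUSP6 and DUSP4 lie below 1 TPM in all 4 libraries.

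Between the conditions, the scaffold KSR1 and the kinase PTK2B were lower after hemin, SPRY2 was higher, and the other tested members differed by less than 0.25 on the log2 scale in either direction. At an adjusted p below 0.05 in edgeR's quasi-likelihood test, 3 of the 8 tested members were past the threshold, 1 higher and 2 lower. Of all 14458 genes tested, 14.1% were past it in either direction, 7% higher and 7.14% lower. Nothing is read from the members' count, since this contrast chose them. The CPM of the conditions did not overlap for 7 of the 8 tested members, against 57.3% of all tested genes, and SPRED1 was the exception. The median log2 fold change was 0.03 over the 8 members and 0.00 over all tested genes.

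**Figure D2:**
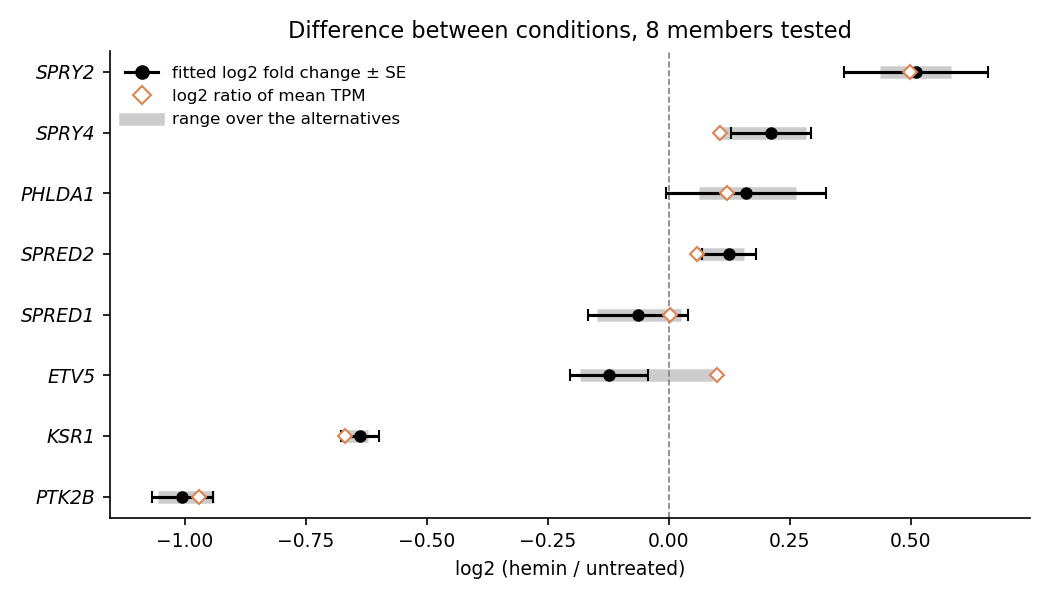
Log2 ratio of hemin-treated to untreated cells for the 8 members tested. Black points are fitted log2 fold changes from counts with their standard errors, open diamonds are log2 ratios of the mean TPM, and grey bars span the 13 alternatives. PTK2B at -1.01 and KSR1 at -0.64 lie left of 0 throughout, SPRY2 at 0.51 lies right of it, and the grey bars of ETV5 and SPRED1 cross 0.

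KSR1 (ENSG00000141068), the kinase suppressor of Ras that holds RAF, MEK and ERK in one complex, lies on the plus strand of chromosome 17 of GRCh38 from 27456448 to 27626438. Its expected counts were 3768 and 3490 in the untreated libraries and 2261 and 2428 in the hemin-treated ones. These correspond to 476 and 466 CPM before and 305 and 301 CPM after treatment, so both treated libraries lay well below both untreated ones. KSR1 had a fitted log2 fold change of -0.64 (standard error 0.04), a level after hemin 0.643 times that of untreated cells. In TPM, which also divides by transcript length, KSR1 was at 251 and 261 in untreated cells and at 169 and 153 after hemin, a log2 difference of -0.67. Over the 13 alternatives its log2 fold change stayed between -0.68 and -0.62. An unnamed protein-coding gene, ENSG00000266728, shares 432 exon bases with KSR1 on the same strand, and held 14.9, 0, 1.52 and 23.0 counts in the 4 libraries. The largest posterior SD that RSEM gave the KSR1 count was 0.348% of it.

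RefSeq lists 3 start sites for KSR1, and the files do not say which of them these cells used. The 250 bases before the first 2 are shown because they differ in composition, with 80.8% G and C in the first (plus strand, GRCh38.p14 chr17:27456198-27456447) and 49.6% in the second (plus strand, chr17:27471714-27471963, inside the gene). Capitals mark a match to the AP-1 motif TGANTCA, which FOS and JUN proteins bind, at bases -104 to -98 from the second start.
KSR1 first start: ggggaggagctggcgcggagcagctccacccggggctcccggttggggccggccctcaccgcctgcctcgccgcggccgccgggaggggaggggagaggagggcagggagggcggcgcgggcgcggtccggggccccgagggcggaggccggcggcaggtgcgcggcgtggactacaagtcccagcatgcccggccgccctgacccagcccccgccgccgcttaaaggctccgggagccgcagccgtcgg
KSR1 second start: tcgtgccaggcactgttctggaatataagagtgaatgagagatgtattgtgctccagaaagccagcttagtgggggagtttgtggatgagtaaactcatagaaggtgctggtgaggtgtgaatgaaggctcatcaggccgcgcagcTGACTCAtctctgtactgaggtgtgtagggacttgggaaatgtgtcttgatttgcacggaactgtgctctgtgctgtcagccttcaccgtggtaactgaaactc

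PTK2B (ENSG00000120899), also called PYK2, is a calcium-responsive tyrosine kinase of the focal adhesion kinase family that can feed into Ras and ERK, and it lies on the plus strand of chromosome 8 from 27311482 to 27459391. Its counts were 819 and 765 in untreated cells and 396 and 397 after hemin. Both treated libraries held about as many reads as each other and far fewer than either untreated library. This gave a log2 fold change of -1.01 (standard error 0.06), or 0.498 times the untreated level, and in TPM the values went from 40.7 and 40.6 to 21.9 and 19.6. Its difference was the largest of the tested members and stayed between -1.06 and -0.94 over the 13 alternatives. No other gene overlaps PTK2B in its exons.

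The scaffold KSR1 can be set beside kinases of the complex it forms, since TPM allows levels of different genes to be compared. In untreated cells KSR1, at 251 and 261 TPM, stood above the MEK gene MAP2K2 at 155 and 151 TPM and far above MAPK3 (ERK1) at 30.6 and 29.7 TPM. After hemin KSR1, at 169 and 153 TPM, overlapped MAP2K2 at 162 and 163 TPM. MAPK3 itself did not pass the threshold, with a log2 fold change of 0.04 ± 0.09 (SE; adjusted p = 0.827 by edgeR), nor did MAP2K2, with 0.09 ± 0.05 (SE; adjusted p = 0.242 by edgeR). MAP2K2, the RAF kinases BRAF and ARAF and the MEK gene MAP2K1 were named after their values were seen, and the last 3 lay between 24.3 and 35.3 TPM in every library.

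**Figure D3:**
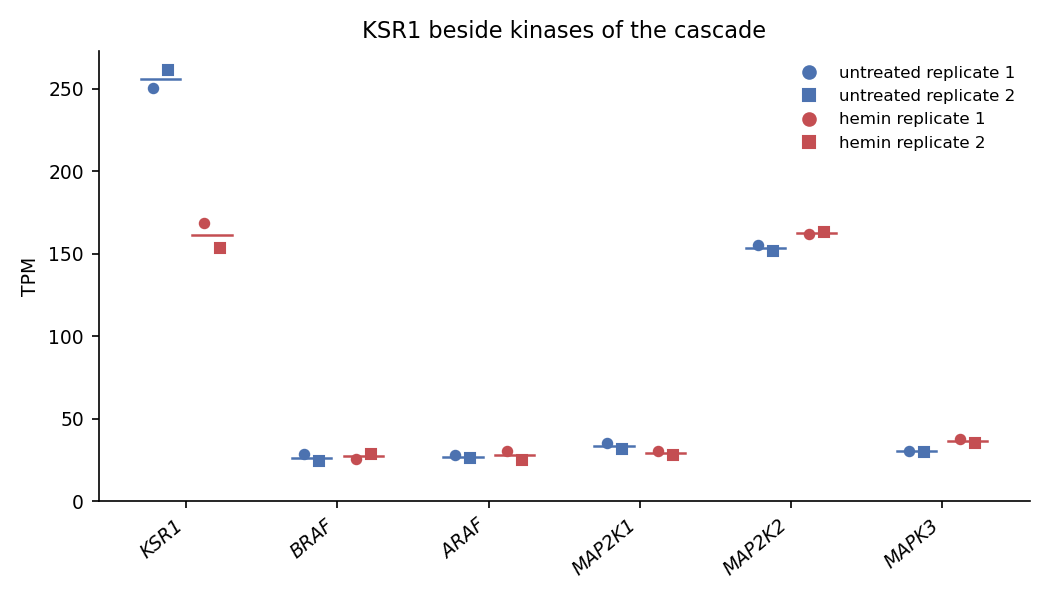
TPM of KSR1 and of kinases of the cascade in the 2 untreated and 2 hemin-treated libraries, 1 point per library, with a bar at each mean. KSR1 lies above MAP2K2 in untreated cells and overlaps it after hemin, while BRAF, ARAF, MAP2K1 and MAPK3 stay below 50 TPM.

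Among 10653 other genes with at least 50 counts on average, CYP2F2P and EML2 had the centred log2 CPM over the 4 libraries that lay nearest to that of KSR1. CYP2F2P is a pseudogene, for which shared reads make the count uncertain, and EML2 encodes a microtubule-binding protein. Their Euclidean distances to KSR1 were 0.00523 and 0.0211 on the log2 scale. EML2, for example, went from 73.6 and 73.0 CPM to 46.8 and 46.7 CPM. With 4 libraries in 2 conditions, such a likeness says little more than that the genes fell by like amounts.

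DUSP4 and DUSP6, the dual-specificity phosphatases that inactivate ERK and are among its best known transcriptional targets, were close to the detection limit. Neither reached 1 TPM in any library. DUSP4 (ENSG00000120875, minus strand of chromosome 8, 29333064 to 29350684), a nuclear phosphatase of ERK, had 4 and 2 counts in untreated cells and 4 and 5 after hemin. Its ratio of untreated to treated counts was 0.670, with an exact 95% interval from 0.196 to 2.11, which covers counting error only, so no difference was detectable at this depth.

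DUSP6 (ENSG00000139318, minus strand of chromosome 12, 89347235 to 89352501), which acts on ERK in the cytoplasm, had 7.52 and 3 counts in untreated cells and 1 and 1.33 counts after hemin. Pooled and rounded, 11 counts stood against 2, a ratio of 5.53 in favour of the untreated cells with an exact 95% interval from 1.21 to 51.4, which covers counting error only and is no test of a gene chosen by this contrast. Both treated libraries lay under the level that a count of 0 allows. RSEM's posterior SD reached 37.6% of the DUSP6 count, and a long non-coding RNA on the other strand, ENSG00000274021, shares 1105 of its exon bases. Because no source states that the counting used strand, reads in the shared bases cannot be assigned with certainty to either gene.

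SPRY2 and SPRY4 are Sprouty proteins, which are induced by growth factor signalling and act back on Ras and RAF. SPRY2 (ENSG00000136158, minus strand of chromosome 13, 80335976 to 80341126) had 72 and 75 counts in untreated cells and 99 and 112 after hemin. The conditions did not overlap, and TPM went from 5.59 and 6.07 to 8.07 and 8.40. Its log2 fold change was 0.51 (standard error 0.15), or 1.43 times the untreated level. It stayed positive in all 13 alternatives, between 0.44 and 0.58. The adjusted p of SPRY2 by edgeR was 0.0494, just under the threshold, and 0.063 with scaling by library size only. SPRY2 was past the threshold in only 4 of the 13 alternatives. Neither DESeq2 (adjusted p = 0.256) nor limma on log2(TPM + 1) (adjusted p = 0.261) placed SPRY2 past the threshold. RefSeq gives 3 starts for SPRY2. The 250 bases before the outermost one (minus strand, GRCh38.p14 chr13:80341127-80341376, 70.4% G and C) are shown as those of the tested member with the highest ratio of treated to untreated cells. None of the motifs searched, of which CGGAAG was the only ETS form, was found in it, so it carries no capitals.
SPRY2 first start: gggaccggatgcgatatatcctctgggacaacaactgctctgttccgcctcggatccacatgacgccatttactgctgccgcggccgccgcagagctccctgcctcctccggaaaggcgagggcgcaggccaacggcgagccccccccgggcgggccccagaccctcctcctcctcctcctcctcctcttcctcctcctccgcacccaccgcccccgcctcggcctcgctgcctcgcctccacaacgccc

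SPRY4 (ENSG00000187678, minus strand of chromosome 5, 142310427 to 142326455) had 302 and 273 counts in untreated cells and 337 and 332 after hemin. On CPM the treated libraries at 45.4 and 41.2 lay just above the untreated ones at 38.2 and 36.5. On TPM they overlapped, at 12.9 and 11.6 before and 14.1 and 12.3 after. From counts the log2 fold change was 0.21 (standard error 0.08), and the log2 difference of the TPM means was 0.11.

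The SPRED proteins, which bring neurofibromin to the membrane to switch Ras off, differed little in count between the conditions. SPRED2 (ENSG00000198369, minus strand of chromosome 2, 65310851 to 65432637) had 631 and 611 counts in untreated cells and 641 and 721 after hemin, with a fitted log2 fold change of 0.12 (standard error 0.06). SPRED1 (ENSG00000166068, plus strand of chromosome 15, 38252836 to 38357249) had 196 and 209 counts before and 178 and 212 after, a log2 fold change of -0.06 (standard error 0.10). The conditions overlapped for SPRED1 on both CPM and TPM, and its sign changed in 4 of 13 alternatives. For SPRED2 they overlapped on TPM, at 30.7 and 29.8 against 29.1 and 33.8, but not on CPM.

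ETV5 and PHLDA1 are read as outputs of the pathway. ETV5 (ENSG00000244405, minus strand of chromosome 3, 186046314 to 186110318), an ETS transcription factor of the PEA3 group, had 318 and 309 counts in untreated cells and 266 and 313 after hemin. Its CPM was lower after hemin, at 35.9 and 38.8 against 40.2 and 41.3, while its TPM overlapped, at 20.2 and 16.0 against 16.2 and 17.5. The fitted log2 fold change from counts was -0.12 (standard error 0.08) and the log2 difference of the TPM means was 0.10. The scales pointed in opposite directions. The mean transcript length that RSEM assigned to ETV5 was 3544 and 3303 bases in untreated cells and 2492 and 3341 bases after hemin, so hemin replicate 1 stood apart in length, and it was the library with the highest ETV5 TPM.

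PHLDA1 (ENSG00000139289, minus strand of chromosome 12, 76025447 to 76031776), a pleckstrin homology-like protein induced by growth factors, had 69.3 and 74.8 counts in untreated cells and 74.8 and 86.9 after hemin. The fitted log2 fold change was 0.16 with a standard error of 0.17, and TPM was 2.17 and 2.43 before and 2.43 and 2.57 after. The antisense gene PHLDA1-AS1 shares 553 exon bases with it and held 3.67, 3.16, 13.2 and 7.06 counts, so part of the PHLDA1 count is uncertain. The 250 bases before its start (minus strand, GRCh38.p14 chr12:76031777-76032026, 70.4% G and C) are shown because they hold CGGAAG, the letters searched for as an ETS site. These letters are in capitals at bases -47 to -42. ETS factors, ETV5 among them, bind sites of this kind.
PHLDA1 start: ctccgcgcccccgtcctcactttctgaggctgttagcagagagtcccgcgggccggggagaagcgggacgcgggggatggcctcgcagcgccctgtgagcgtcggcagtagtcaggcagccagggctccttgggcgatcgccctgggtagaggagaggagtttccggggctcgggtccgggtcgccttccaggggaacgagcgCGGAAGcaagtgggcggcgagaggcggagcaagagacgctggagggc

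The RefSeq table of promoters on GRCh38.p14 held 12 windows for 7 of the members, namely KSR1, DUSP6, SPRY2, SPRY4, SPRED1, SPRED2 and PHLDA1. In the 250 bases before each start, on both strands, the ETS letters CGGAAG were found in 2 of the 12 windows, those of PHLDA1 and DUSP6. Of 35116 windows of all genes, 16.5% held them. ETS sites with other letters around GGAA were not searched. The AP-1 motif TGANTCA was found in 1 of the 12, that of the second KSR1 start, against 6.57% of all windows. The cAMP response element TGACGTCA and the CArG box, bound by serum response factor, were in none of the 12 and in 1.65% and 1.16% of all windows. These matches are letters in a window and show no binding.

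The mean transcript length that RSEM assigned in each library enters the TPM of a gene but not its count, and is given here as a description. It differed without overlap between the conditions for 3 of the 8 tested members, against 29.5% of all tested genes. PTK2B went from 3630 and 3526 bases in untreated cells to 3395 and 3455 after hemin, SPRY2 from 2342 and 2330 to 2319 and 2296, and SPRY4 from 4206 and 4400 to 4478 and 4595. With 2 libraries against 2, no exact permutation test of 1 gene could reach the threshold, so none was made.

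The closest relatives of the members showed no difference past the threshold. Of 14 relatives, 9 were tested, and by edgeR none was higher or lower at an adjusted p below 0.05, with 1 lower at an unadjusted p under 0.05, none adjusted by DESeq2 and none adjusted by limma. KSR2, the other KSR scaffold, had no count in any library, as did DUSP2, SPRY3 and PHLDA3. SPRED3 had 6, 6, 8 and 6 counts. PTK2, the focal adhesion kinase next in kind to PTK2B, had 1082 and 1087 counts before and 1008 and 1043 after, a log2 fold change of -0.09 ± 0.05 (SE; adjusted p = 0.309 by edgeR). DUSP5, a nuclear ERK phosphatase, had 69 and 57 counts before and 35 and 47 after, a log2 fold change of -0.63 ± 0.22 (SE; adjusted p = 0.0852 by edgeR), without overlap but not past the threshold. DUSP1, DUSP7, DUSP9, SPRY1, ETV1, ETV4 and PHLDA2 lay between -0.49 and 0.17 on the log2 scale.

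A set of 10 ERK target genes is in common use as a score of pathway activity, and 6 of them are members. Of the other 4, those read deeply enough to test were not past the threshold. CCND1, a G1 cyclin, had 143 and 122 counts before and 135 and 143 after, and ETV4, a PEA3 factor like ETV5, had 351 and 344 before and 310 and 341 after. Neither passed the threshold (adjusted p = 0.787 and 0.402 by edgeR), none did at an unadjusted p under 0.05, and DESeq2 and limma also called none. For CCND1 the scales differed again, with a log2 fold change of 0.06 from counts and -0.41 on log2(TPM + 0.1). The ephrin receptor EPHA2 had 1, 0, 3 and 4 counts and EPHA4 had none.

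The wider pathway was followed in 151 other genes grouped by role, of which 123 were tested. In the fit with edgeR, 16 of them rose and 10 fell, or 13.0% and 8.13% of those tested, beside 7% and 7.14% of all genes. Their median log2 fold change was 0.04, against 0.00 over all tested genes. The gene lists were drawn up with earlier results of these data known, so these shares are a description. Of the 26 genes past the threshold, 10 were past it in all 11 alternatives that used counts, namely VGF, FOS, FOSB, EGR1, MYC, CSK, YES1, ERBB3, FGFR3 and MKNK2. YES1 and 8 further genes of the 26 that are named below lie outside the rule for named genes and were named after their values were seen. limma on log2(TPM + 1) called 1 of the 26, EGR1.

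**Figure D4:**
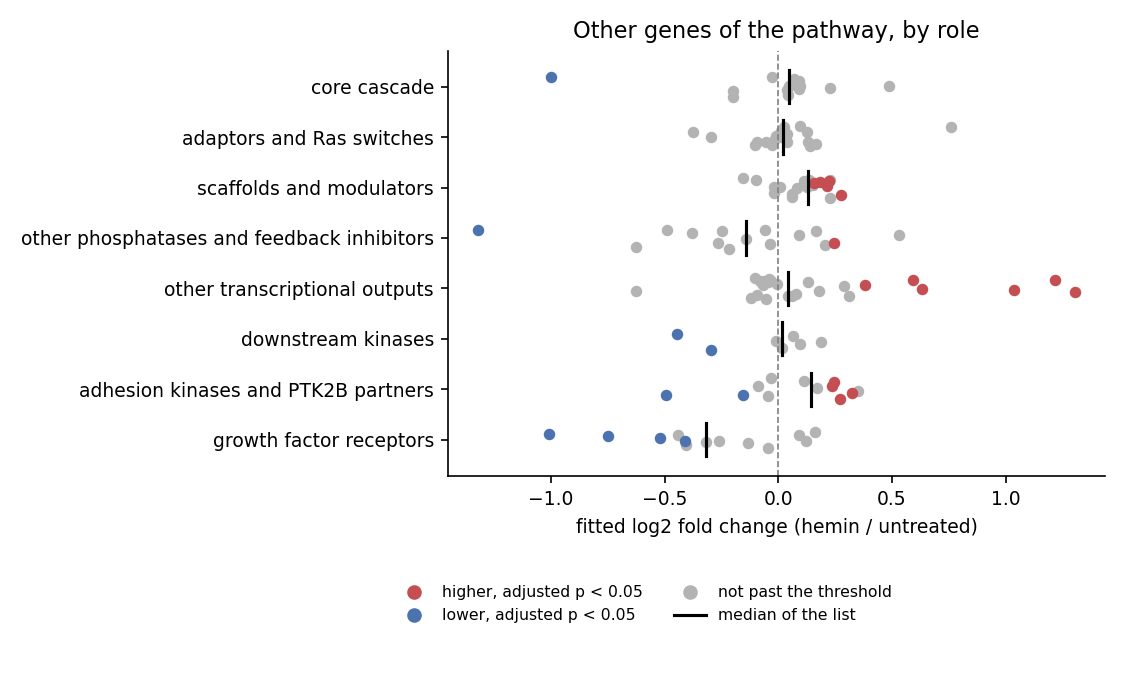
Fitted log2 fold change of the other tested pathway genes in 8 role groups, 1 point per gene. Red points are higher and blue points lower after hemin at an adjusted p below 0.05 by edgeR, grey points are not past it, and black bars are medians of the groups. The 6 red points of the transcriptional outputs reach 1.31, and the 4 blue points of the growth factor receptors reach -1.01.

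At the level of transcriptional output, VGF, FOS, FOSB, EGR1, IER3 and MYC rose, while other early response genes did not pass the threshold. Of 33 other outputs, 25 were tested and 6 rose. None fell by edgeR, DESeq2 or limma after adjustment, and 1 was lower at an unadjusted p under 0.05 in edgeR. VGF, a secreted neuropeptide precursor, went from 93 and 85 counts to 203 and 240 (log2 fold change 1.31 ± 0.11 SE, edgeR adjusted p = 0.00027). The AP-1 genes FOS and FOSB went from 156 and 102 counts to 289 and 314, and from 73 and 80 to 155 and 161, or 1.22 ± 0.14 and 1.04 ± 0.13 on the log2 scale (edgeR adjusted p = 0.00084 and 0.00159). JUN, JUNB, IER2 and FOSL2, which were named after their values were seen and are induced early like FOS, lay between -0.07 and -0.03 on the log2 scale. FOSL1, also named after its value was seen, was at 0.29 ± 0.13 (SE; adjusted p = 0.177 by edgeR). For FOSL2 the standard error was 0.27, and its TPM went from 2.15 and 2.24 in untreated cells to 1.25 and 0.86 after hemin. In VGF, FOS and FOSB both treated libraries stood above both untreated ones. EGR1, a zinc finger factor, rose by 0.63 ± 0.04, IER3, a stress-induced survival gene, by 0.59 ± 0.11, and MYC by 0.38 ± 0.04 (log2 ± SE; edgeR adjusted p = 5.2e-05, 0.0092 and 0.000667). MYC, at 239 and 234 TPM in untreated cells, was the highest of this group, and IER3 was not past the threshold without untreated replicate 1 (edgeR adjusted p = 0.0659).

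Some growth factor receptors fell after hemin. Of 20 receptors 13 were tested and 4 fell, with a median of -0.32 over the group. None rose by edgeR, also at an unadjusted p under 0.05, nor by DESeq2 or limma. ERBB3, a receptor of the EGF family, went from 218 and 189 counts to 97 and 106.1 (log2 fold change -1.01 ± 0.11 SE, edgeR adjusted p = 0.000761), and FGFR3, a fibroblast growth factor receptor, from 145 and 139 to 81 and 89 (-0.75 ± 0.13, edgeR adjusted p = 0.00581). FGFR4, of the same family as FGFR3, fell by 0.41 ± 0.11 on the log2 scale (edgeR adjusted p = 0.0366). Without untreated replicate 1, untreated replicate 2 or hemin replicate 1 it was not past the threshold (edgeR adjusted p = 0.091, 0.146 and 0.175), nor was it in DESeq2 (adjusted p = 0.185). FGFR1, the highest of the group with 42.4 and 45.4 TPM untreated, differed by 0.12 ± 0.06 and was not past the threshold (edgeR adjusted p = 0.179).

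The cascade itself and its switches held a single gene past the threshold. Of 13 core genes, all tested, 1 fell by edgeR and none by DESeq2 or limma, and none rose by any of them after adjustment, with 2 higher and 3 lower at an unadjusted p under 0.05 in edgeR. The gene that fell was RRAS, a small GTPase related to Ras, from 65 and 63 counts to 41 and 23 (log2 fold change -1.0 ± 0.29 SE, edgeR adjusted p = 0.0491). It was not past the threshold in DESeq2 (adjusted p = 0.116), nor in edgeR without untreated replicate 1, untreated replicate 2 or hemin replicate 2, and without the last its log2 fold change was -0.59. Of the 22 adaptors and Ras switches 20 were tested and none was past the adjusted threshold in edgeR, DESeq2 or limma, with 2 higher and 1 lower at an unadjusted p under 0.05 in edgeR. BCR and ABL1, the partners of the fusion, differed by 0.01 ± 0.06 and 0.04 ± 0.04 (log2 ± SE; edgeR adjusted p = 0.906 and 0.618), and the sign of both turned when counts were scaled by library size only. LZTR1, a substrate adaptor for the degradation of Ras proteins and the highest of this group at 107 and 112 TPM untreated, differed by 0.04 ± 0.04 (edgeR adjusted p = 0.587).

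Among the other scaffolds and modulators, some rose by small amounts while KSR1 was lower. Of 23 genes 20 were tested and 5 rose, with a median of 0.13. None fell by edgeR, DESeq2 or limma, also at an unadjusted p under 0.05. PHB1, a prohibitin that binds RAF, rose by 0.28 ± 0.06, and the chaperone HSP90AB1, the most abundant of all the pathway genes at 1229 and 1233 TPM untreated, by 0.16 ± 0.04 (log2 ± SE; edgeR adjusted p = 0.0141 and 0.0197). PEBP1, which inhibits RAF, the 14-3-3 protein YWHAB and the adaptor GRB10 rose by 0.21, 0.22 and 0.18. PHB1 was not past the threshold without either untreated library, nor HSP90AB1 without untreated replicate 1, nor YWHAB without untreated replicate 1 or hemin replicate 2. PEBP1 and GRB10 were not past it in DESeq2, with scaling by library size only, or without any one of the 4 libraries, and GRB10 differed by 0.03 on log2(TPM + 1).

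Around PTK2B, 12 of 14 adhesion kinases and partners were tested, 4 rose and 2 fell. CSK, which inhibits Src family kinases, rose by 0.33 ± 0.06 (log2 ± SE; edgeR adjusted p = 0.0101), and the Src family kinases YES1 and LYN and the adaptor CRK rose by 0.25, 0.24 and 0.27. PITPNM1, a phosphatidylinositol transfer protein that binds PTK2B, went from 405 and 355 counts to 244 and 299 (log2 fold change -0.49 ± 0.09 SE, edgeR adjusted p = 0.00688), and RB1CC1, which binds both PTK2B and PTK2, fell by 0.16. Without untreated replicate 1 the adjusted p of PITPNM1 was 0.0511 by edgeR. RB1CC1 was not past the threshold with RLE factors, in DESeq2, with no count filter or without any one of the 4 libraries, LYN was not in DESeq2 or without either untreated library or hemin replicate 2, and CRK was not in DESeq2, with library size only or without either untreated library or hemin replicate 1. The highest of the group, PTK2, is described above among the relatives.

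Among 20 other phosphatases and feedback inhibitors, 15 were tested, 1 rose and 1 fell, with a median of -0.14. DUSP8, a phosphatase that acts mainly on JNK and p38, went from 63.2 and 46.6 counts to 23.5 and 20.5 (log2 fold change -1.32 ± 0.27 SE, edgeR adjusted p = 0.0123), and without untreated replicate 1 it was not past the threshold (edgeR adjusted p = 0.0864). PPP2CA, the catalytic subunit of protein phosphatase 2A, rose by 0.24 but was not past the threshold without untreated replicate 1, while its scaffold subunit PPP2R1A, the highest of the group at 203 and 189 TPM untreated, differed by -0.04 ± 0.04 (log2 ± SE; edgeR adjusted p = 0.647). Of 8 downstream kinases 7 were tested and 2 fell, and none rose by edgeR, DESeq2 or limma, with 1 higher at an unadjusted p under 0.05 in edgeR. MKNK2, which phosphorylates the cap-binding factor eIF4E and was the highest of the group at 93.8 and 91.1 TPM, went from 1356 and 1261 counts to 966 and 967 (log2 fold change -0.44 ± 0.05 SE, edgeR adjusted p = 0.00107). RPS6KA1, a ribosomal S6 kinase under ERK, fell by 0.29 from counts, but on log2(TPM + 1) it differed by 0.03, and it was not past the threshold with RLE factors, in DESeq2, with no count filter or without any one of the 4 libraries.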

How the data were processed

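The data are RNA-seq libraries of poly(A) RNA, 2 from untreated and 2 from hemin-treated K562 cells. Per the submitters' processing notes and the study's methods, the authors trimmed reads with Trimmomatic 0.39 and quantified them with RSEM 1.3.1 on an Ensembl annotation of GRCh38. The deposited expected counts and posterior mean counts estimate the reads of each gene by RSEM, which divides shared reads between genes, and no source states that strand was used. The authors' TPM are scaled by effective length, and the deposited mean TPM equal the means of the 2 libraries to within rounding. The deposited FPKM tables and the contact data were not used here.

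Counts were rounded, filtered with filterByExpr (14458 of 61498 genes kept), scaled with TMM factors and fitted with edgeR 4.0.16 (quasi-likelihood test, condition as the only term, Benjamini-Hochberg adjustment, threshold 0.05) in R 4.3.3. Standard errors were taken as the absolute log2 fold change over the square root of the F statistic of this test. The code was tested on simulated data. Tried in its place were DESeq2 1.42.0, RLE factors, scaling by library size alone, no filter, a minimum of 20 counts in each library of a condition, a replicate block, posterior mean counts, limma 3.58.1 on log2(TPM + 1) and log2(TPM + 0.1), and each library left out in turn. Count intervals are exact (95%, scipy 1.17.1). Positions come from GENCODE 44 (GRCh38), which held 99.84% of the gene IDs, and promoter sequences from RefSeq (GRCh38.p14).

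The members and all gene lists were chosen with earlier results of these data known. Named pathway genes were the 8 largest increases and 8 largest decreases past the threshold with at least 20 counts on average, the highest untreated TPM of each list, the activity score genes, MAPK3, BCR, ABL1 and the members' relatives. Some genes that this rule names are not reported here. PHB1 is listed in the files as PHB.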

Additional observations from a re-analysis of the deposited data

How the results depend on the processing

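The count of members past the threshold, a description of genes chosen by this contrast, was 3, and 2 in the alternatives in which SPRY2 was not past it. Over all genes, 1012 were higher and 1033 lower, against 589 and 505 with DESeq2, 14 and 33 with limma on log2(TPM + 1), and 15 and 34 with limma on log2(TPM + 0.1). Scaling by library size only gave 729 higher and 1358 lower and moved the median of all genes to -0.04 on the log2 scale. Leaving out 1 library gave 469 to 934 higher and 512 to 884 lower genes, with 469 and 512 without untreated replicate 1 and 537 and 532 without untreated replicate 2. Of the other pathway genes, 16 were higher and 10 lower. limma left 1 higher and 0 lower on either TPM scale, with 8 lower at an unadjusted p under 0.05, and DESeq2 gave 12 higher and 5 lower. Leaving out 1 library gave 7 to 13 higher and 4 to 8 lower, with 7 and 4 without untreated replicate 1, 5 lower without untreated replicate 2 and 6 lower without hemin replicate 2. In these fits the remaining library of a condition takes its spread from the other condition. The cause of these differences was not tested.

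With a replicate block, edgeR gave 855 genes higher and 886 lower, 15 and 7 of the other pathway genes, and 2 members. The pathway genes no longer past the threshold were HSP90AB1, RRAS, RB1CC1 and RPS6KA1, at adjusted p = 0.0507, 0.0529, 0.0741 and 0.071 by edgeR. The labels give the replicates a number only and do not say what it marks. Over all tested genes, the deviations of same-numbered samples had a correlation of 0.00473, for the 1 pairing that can be computed. Noise in single genes can hide a shared batch, so this value does not settle whether the samples were paired. The block is therefore given as an alternative only.

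At this depth, DUSP4, DUSP6 and the 28 pathway genes below the filter were not tested in the main fit. The fit with no count filter took in those with any count. The 3 members past the threshold in it were KSR1, PTK2B and SPRY2. With so few counts, the lack of a call for DUSP4 and DUSP6 there says little.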
